A study of Mus musculus with 14 samples.

Results

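Binding sites of the transcription factors PU.1 and C/EBPβ in mouse CD41+ hematopoietic progenitors (HP) were compared by splitting their ChIP-seq peaks into sites listed for PU.1 only, sites shared by both factors and sites listed for C/EBPβ only. A peak was called shared when it overlapped a peak of the other factor by at least 1 bp. The 2 lists held 13659 peaks of the 158488 in the series, of which 10943 were PU.1 peaks and 2716 were C/EBPβ peaks. The series as used here covered 7 factors in 5 populations of an in vitro differentiation of mouse embryonic stem (ES) cells of strain 129. It was given as 14 peak lists, 6 of them from HP. The authors mapped further factors, also in HP, which are not among these lists. The populations were ES derived mesoderm (MES; Brachyury GFP reporter positive, FLK1-), hemangioblasts (HB; Brachyury GFP positive, FLK1+), hemogenic endothelium (HE; Brachyury GFP positive, Tie2+, Ckit+, CD41-), HP sorted for CD41, and CD11b+ macrophages (MAC). The antibodies against PU.1 (the product of Spi1) and C/EBPβ were from Santa Cruz, and the populations differed by stage and sort, not by a drug or a deleted gene. There was 1 list per factor and population, so nothing below has a replicate error. Tests between peak classes compare the peaks of these libraries and not conditions, and intervals cover counting error only. The lists carry no reads or scores and the depth of the libraries was not used here, so a missing peak was not measured as missing binding.

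PU.1 is an ETS family factor that binds a purine-rich sequence with a GGAA core and is required for the myeloid and B lymphoid lineages. C/EBPβ is a basic leucine zipper factor that binds as a dimer to palindromic sequences related to TTGCGCAA, and it is known for its part in macrophage and granulocyte gene expression and in emergency blood formation. C/EBP proteins can also pair with ATF4, the factor of the amino acid stress response, and such pairs bind the composite element TTGCATCA. The comparison asks how these 2 myeloid regulators divided or shared their sites and their genes in cells that had just become blood cells. HP peaks were also looked up at Itga2b, which encodes the sorting marker CD41. It had PU.1 peaks 363 bp and 8986 bp upstream of its start site and no C/EBPβ peak. Peak lists hold no expression, so the population was not checked by its transcripts.

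The sequences below were chosen for their consensus letters and show where these lay in shared, separate and C/EBPβ only sites. They are not typical of all such sites, since 83 of the 406 shared pairs held both consensus sequences and 7.45% of C/EBPβ only peaks held the C/EBP-ATF letters. All are the plus strand of GRCm38, read 5′ to 3′, and capitals mark the matched consensus with 20 bases on either side. The PU.1 consensus was GAGGAAGT and the C/EBP consensus was TTGCNNAA, where N is any base, and either may stand on either strand, so that the PU.1 letters read ACTTCCTC in some lines. The first set comes from shared peaks that held both consensus sequences and lay nearest to a gene of the functional lists used below, in order of the spacing between the consensus sequences. The site of Ccl3, with 140 bases between them, is left out for its length.
Ctsd, intergenic, chr7:142399409-142399463: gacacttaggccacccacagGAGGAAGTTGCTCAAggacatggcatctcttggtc
Tfeb, intron, chr17:47754368-47754422: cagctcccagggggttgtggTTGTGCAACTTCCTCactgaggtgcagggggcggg
Tnfrsf1b, intron, chr4:145241133-145241193: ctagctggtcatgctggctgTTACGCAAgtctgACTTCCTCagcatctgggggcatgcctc
Cxcr2, intron, chr1:74155602-74155672: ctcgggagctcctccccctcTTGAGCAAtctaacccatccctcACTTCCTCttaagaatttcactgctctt
Klf4, intergenic, chr4:55623481-55623563: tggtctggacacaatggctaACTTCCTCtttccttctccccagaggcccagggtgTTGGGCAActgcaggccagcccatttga
Itgax, coding exon, chr7:128133782-128133868: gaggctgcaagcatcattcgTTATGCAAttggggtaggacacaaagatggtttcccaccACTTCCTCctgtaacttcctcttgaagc
Ifngr2, intergenic, chr16:91546567-91546660: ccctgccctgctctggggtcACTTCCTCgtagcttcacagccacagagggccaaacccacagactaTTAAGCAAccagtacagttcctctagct

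In the Ctsd and Tfeb sites the PU.1 and C/EBP letters overlapped by 1 base. There were 5 bases between them at Tnfrsf1b, 15 at Cxcr2, 27 at Klf4, 31 at Itgax and 38 at Ifngr2. The next set shows genes of granulocyte development that had both factors at separate sites, with each factor's peak on its own consensus. Csf3r encodes the G-CSF receptor, Mpo encodes the granule enzyme myeloperoxidase, and Cebpe encodes C/EBPε, a regulator of late granulocyte maturation.
Csf3r, C/EBPβ peak, chr4:126017790-126017837: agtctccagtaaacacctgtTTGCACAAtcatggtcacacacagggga
Csf3r, PU.1 peak, chr4:126030920-126030967: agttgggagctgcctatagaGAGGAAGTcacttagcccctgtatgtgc
Mpo, C/EBPβ peak, chr11:87790227-87790274: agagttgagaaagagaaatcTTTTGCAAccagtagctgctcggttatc
Mpo, PU.1 peak, chr11:87793540-87793587: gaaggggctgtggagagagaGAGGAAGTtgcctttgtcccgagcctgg
Cebpe, C/EBPβ peak, chr14:54705955-54706002: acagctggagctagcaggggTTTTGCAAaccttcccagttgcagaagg
Cebpe, PU.1 peak, chr14:54713076-54713123: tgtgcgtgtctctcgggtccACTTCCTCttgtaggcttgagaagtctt

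The last set shows the C/EBP-ATF element TTGCATCA in C/EBPβ peaks at the starts of genes that had no PU.1 peak. These genes were chosen after their sites had been seen. Ddit3 encodes the stress factor CHOP, Chac1 a glutathione-degrading enzyme, Pycr1 an enzyme of proline synthesis, Shmt2 the mitochondrial serine hydroxymethyltransferase, and Aars and Sars the alanyl- and seryl-tRNA synthetases.
Ddit3, chr10:127290472-127290519: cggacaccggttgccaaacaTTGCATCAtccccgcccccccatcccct
Chac1, chr2:119351029-119351076: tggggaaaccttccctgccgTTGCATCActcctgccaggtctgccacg
Pycr1, chr11:120643824-120643871: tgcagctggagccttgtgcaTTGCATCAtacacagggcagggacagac
Shmt2, chr10:127521937-127521984: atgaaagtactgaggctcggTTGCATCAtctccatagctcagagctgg
Aars, chr8:111033710-111033757: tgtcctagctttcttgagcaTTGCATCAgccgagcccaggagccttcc
Sars, chr3:108444181-108444228: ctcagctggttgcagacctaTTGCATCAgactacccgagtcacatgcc

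Few sites carried both factors, and the shared ones were a larger share of the shorter list. Of the 10943 PU.1 peaks, 10537 were listed for PU.1 only and 406 (3.71%, 95% Clopper-Pearson interval 3.36 to 4.08) were shared. Of the 2716 C/EBPβ peaks, 2310 were listed for C/EBPβ only and 406 (14.9%, interval 13.6 to 16.3) were shared. Each shared C/EBPβ peak met a single PU.1 peak. Among C/EBPβ peaks that met no PU.1 peak, the nearest PU.1 peak was a median of 32321 bp away, and 22.6% had one within 10 kb.

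The classes differed in where they lay relative to genes. The centre lay within 2 kb of the start site (TSS) of a coding gene in 17.97% of PU.1 only peaks (interval 17.2 to 18.7), 24.9% of shared peaks (20.7 to 29.4) and 29.5% of C/EBPβ only peaks (27.6 to 31.4). C/EBPβ only peaks were at promoters more often than PU.1 only peaks by 11.5 percentage points (Fisher's exact test, two-sided, Benjamini-Hochberg adjusted over 66 tests, exact p = 8.4e-33), and shared peaks were at promoters more often than PU.1 only peaks (adjusted exact p = 0.00114), which no longer passed with a limit of 5 kb (4.62 points, adjusted exact p = 0.0683). Shared and C/EBPβ only peaks were not separated by this test (difference of -4.60 points, adjusted exact p = 0.0980). The median distance to the nearest coding TSS was 18828 bp for PU.1 only, 14342 bp for shared and 11736 bp for C/EBPβ only peaks. Introns held 50.5%, 49.3% and 43.4% of the peaks of the 3 classes in that order. The C/EBPβ only class also held most of the peaks close to tRNA genes, which RNA polymerase III transcribes. Within 500 bp of a tRNA gene lay 185 C/EBPβ only peaks (8.01%), 6 shared peaks (1.48%) and 6 PU.1 only peaks (0.0569%). The C/EBPβ only share was above the shared one (adjusted exact p = 1.9e-07, same test).

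The consensus letters separated the 3 classes, and the shared class held each factor's own letters to a different degree. PU.1 only peaks held the C/EBP consensus in 15.3% of cases, against 64.3% of shared peaks (interval 59.4 to 69.0) and 63.9% of C/EBPβ only peaks (61.9 to 65.9), beside 15.1% to 15.4% in windows of the same width 2 kb away and 27.3% of all 158488 peaks of the series. Most peaks of the series are of the same factors in macrophages (82866 PU.1 and 55471 C/EBPβ peaks), so the series is not a neutral background. Shared peaks, represented by their C/EBPβ peak, held the C/EBP consensus more often than PU.1 only peaks by 49.0 points (adjusted exact p = 1.2e-103). PU.1 only peaks overlap no C/EBPβ peak by definition, so this difference is in part set by the split. Shared and C/EBPβ only peaks differed by 0.39 points (adjusted exact p = 0.939), and by -7.25 points when shared pairs were counted by their PU.1 peak (adjusted exact p = 0.0107). The PU.1 consensus was found in 42.6% of PU.1 only peaks (41.6 to 43.5), 26.4% of shared peaks (22.1 to 30.9) and 3.55% of C/EBPβ only peaks (2.83 to 4.39), beside 2.66% to 3.08% in the windows 2 kb away and 18.8% of all peaks of the series. The shared class was thus below the PU.1 only class (adjusted exact p = 1.2e-10) and above the C/EBPβ only class (adjusted exact p = 1.5e-43). The latter difference is likewise in part set by the split, since C/EBPβ only peaks overlap no PU.1 peak. Shared pairs were represented by their C/EBPβ peak, and counted by their PU.1 peak 29.1% held the PU.1 consensus.

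The consensus letters of partner factors divided the classes less. The C/EBP-ATF letters TTGCATCA, which TTGCNNAA does not match, were in 1.31% of PU.1 only, 6.65% of shared and 7.45% of C/EBPβ only peaks, beside 0.616% to 1.11% in the windows 2 kb away. Both C/EBPβ classes exceeded the PU.1 only class (adjusted exact p = 2.1e-10 for shared and 2.2e-50 for C/EBPβ only), while they were not separated from each other (adjusted exact p = 0.760). The ETS-IRF letters GGAANNGAA, a joint element of PU.1 with interferon regulatory factors that can overlap the PU.1 consensus, were in 18.5%, 19.5% and 12.5% of the 3 classes, beside 12.8% to 13.2% in the windows 2 kb away. C/EBPβ only peaks held them less often than shared peaks (adjusted exact p = 5.2e-04). The letters of 3 further factors passed no test between classes. Those of RUNX, TGTGGTT, were in 12.5%, 14.3% and 13.0% of PU.1 only, shared and C/EBPβ only peaks. For the blood factors of the GATA family the letters AGATAA were in 20.0%, 17.5% and 19.7%. The AP-1 letters TGANTCA, of a leucine zipper family related to C/EBP, were in 14.04%, 15.5% and 15.2%. In the windows 2 kb away RUNX letters were in 9.24% to 11.5% and AP-1 letters in 10.6% to 11.5%, below the peaks, and GATA letters in 18.7% to 21.1%, no fewer than in the peaks of the same class. The CRE letters TGACGTCA, bound by CREB and ATF factors, were in 0.636% of PU.1 only, 1.23% of shared and 1.47% of C/EBPβ only peaks, beside 0.246% to 0.308% in the windows. C/EBPβ only peaks exceeded PU.1 only peaks (adjusted exact p = 2.6e-04), and shared peaks were separated from neither.

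**Figure D1:**
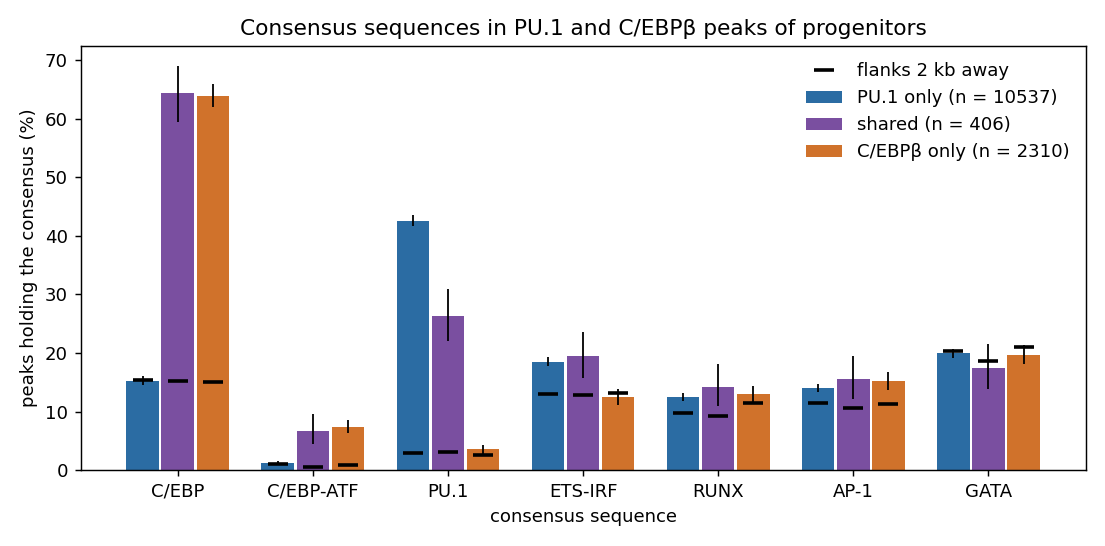
Share of peaks (percent, y axis) that hold each consensus sequence on the x axis, for PU.1 only, shared and C/EBPβ only peaks, with 95% Clopper-Pearson intervals as lines and the share in windows 2 kb away as black dashes. Shared peaks sit with the C/EBPβ only peaks for the C/EBP consensus (64.3% and 63.9%) and between the other classes for the PU.1 consensus (26.4%).

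Shared and C/EBPβ only peaks were also compared by the exact C/EBP letters. The perfect palindrome TTGCGCAA was in 296 C/EBPβ only peaks (12.8%, interval 11.5 to 14.2), in 13 shared peaks (3.20%, 1.72 to 5.41) and in 2 PU.1 only peaks (0.0190%). Shared peaks were 9.61 points below C/EBPβ only peaks (difference of -9.61, adjusted exact p = 9.3e-10). Without the peaks near tRNA genes, an alternative added after the values were seen, the shares were 3.25% and 13.8%. The letters TTGCACAA were in 15.8% of shared and 17.8% of C/EBPβ only peaks. The letters TTGCCCAA (TTGGGCAA on the other strand, as in the Klf4 site above) were in 43 shared peaks (10.6%) and 119 C/EBPβ only peaks (5.15%), which was not tested.

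Where a peak held its own factor's consensus, the letters lay near its centre. The PU.1 consensus was a median of 11 bp from the centre of PU.1 only peaks that held it, and 91.0% of these had it within 50 bp. In shared peaks it was a median of 15.5 bp from the centre of the PU.1 peak and 50 bp from the centre of the C/EBPβ peak. The C/EBP consensus was a median of 19 bp from the centre of the C/EBPβ peak and 43 bp from the centre of the PU.1 peak in the shared class. In C/EBPβ only peaks it was a median of 16 bp from the centre. In the PU.1 only peaks that held it, the C/EBP consensus was a median of 90 bp from the centre, and 27.7% had it within 50 bp.

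The spacing within shared pairs varied, within the limit of under 400 bp between centres that the overlap rule sets. The centres of the PU.1 and C/EBPβ peaks of a pair were a median of 59.5 bp apart, with quartiles of 26.25 and 125 bp. They were within 50 bp in 184 pairs (45.3%) and within 100 bp in 284 pairs (70.0%). Over the joined region of each pair, 83 (20.4%) held both consensus sequences, 179 (44.1%) the C/EBP consensus without the PU.1 consensus, 39 (9.61%) the PU.1 consensus without the C/EBP consensus, and 105 (25.9%) neither. Among the 83 pairs with both, a median of 49 bases lay between the consensus sequences, and the quartiles were 22 and 100. The spacing was at most 20 bases in 19 of these and at most 50 in 43. The overlapping arrangement of the Ctsd and Tfeb sites occurred only in those 2 pairs.

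**Figure D2:**
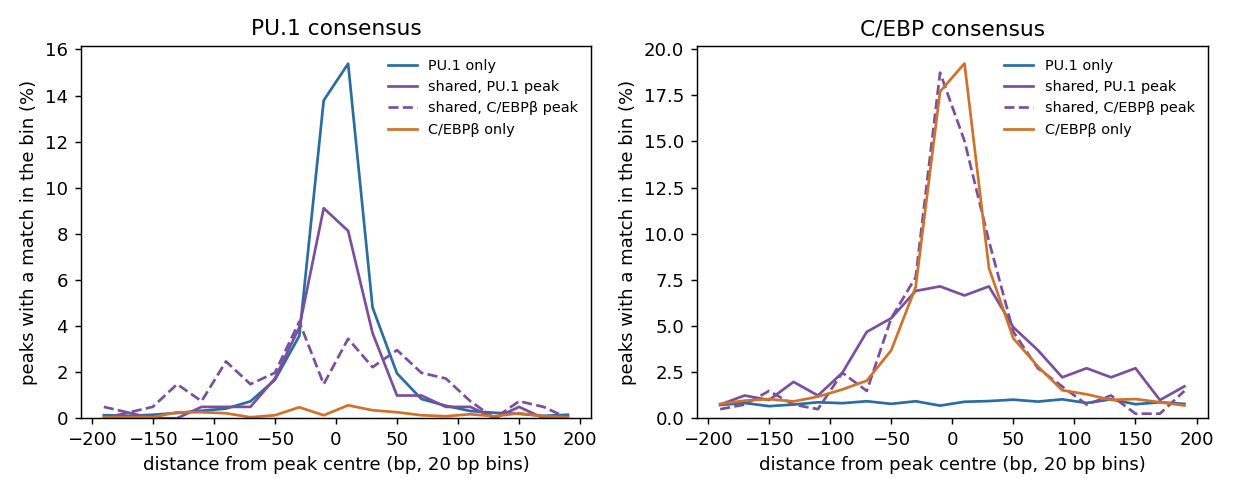
Percent of peaks with a match (y axis) by distance from the peak centre (bp, x axis, in bins of 20 bp), for the PU.1 consensus on the left and the C/EBP consensus on the right, with shared pairs centred on their PU.1 peak (solid) or their C/EBPβ peak (dashed). The PU.1 consensus rises at the centre of PU.1 only peaks and the C/EBP consensus at the centre of both C/EBPβ classes, while the C/EBP line of PU.1 only peaks is flat.

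The 3 classes were then looked up in the other 12 lists, which the split did not use. In CD11b+ macrophages, C/EBPβ peaks overlapped 33.7% of PU.1 only, 97.5% of shared and 90.3% of C/EBPβ only peaks. Shared peaks were found there more often than C/EBPβ only peaks by 7.19 points (adjusted exact p = 3.1e-07). Macrophage PU.1 peaks overlapped 96.9% of PU.1 only, 97.8% of shared and 44.5% of C/EBPβ only peaks. Many sites that carried 1 factor in HP were therefore listed for both in macrophages, whose lists were far longer (82866 PU.1 and 55471 C/EBPβ peaks). Both macrophage lists held 3506 PU.1 only peaks (33.3%), 389 shared peaks (95.8%) and 984 C/EBPβ only peaks (42.6%). The macrophage C/EBPβ list without the PU.1 list held 1103 C/EBPβ only peaks (47.7%), and neither list held 179 (7.75%).

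C/EBPβ had also been mapped before the blood stage, and these earlier lists overlapped C/EBPβ only peaks more often than shared peaks in MES and HB. MES C/EBPβ peaks overlapped 22.7% of C/EBPβ only, 8.87% of shared and 0.0569% of PU.1 only peaks, and C/EBPβ only peaks exceeded shared peaks (adjusted exact p = 3.7e-11). HB C/EBPβ peaks overlapped 17.97%, 6.90% and 0.00949% in the same order (adjusted exact p = 6.9e-09 for C/EBPβ only against shared). HE C/EBPβ peaks overlapped 4.37% of C/EBPβ only and 2.22% of shared peaks, a difference that did not pass the test (adjusted exact p = 0.0623). The HP peaks of the other blood regulators went the other way and were most frequent at shared sites. RUNX1, required for the emergence of blood cells, was listed at 6.40% of shared, 1.58% of PU.1 only and 2.03% of C/EBPβ only peaks (adjusted exact p = 3.0e-08 and 1.7e-05 for shared against each). GATA2, a stem and progenitor cell factor, was listed at 5.17%, 0.797% and 1.34% (adjusted exact p = 5.9e-10 and 1.4e-05). GATA1, the erythroid and megakaryocytic factor, was listed at 1.97% (only 8 shared peaks), 0.294% and 0.649% (adjusted exact p = 1.5e-04 and 0.0242). For the repressor GFI1B, at 4.68%, 1.79% and 3.77%, shared peaks exceeded PU.1 only peaks (adjusted exact p = 5.2e-04) and were not separated from C/EBPβ only peaks (adjusted exact p = 0.484). Without regions found in at least 8 lists, shared peaks still exceeded PU.1 only peaks by 3.66 points for RUNX1 (adjusted exact p = 1.4e-05) and by 3.20 points for GATA2 (adjusted exact p = 1.6e-06). For GATA1 and GFI1B the values without these regions are not given here.

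**Figure D3:**
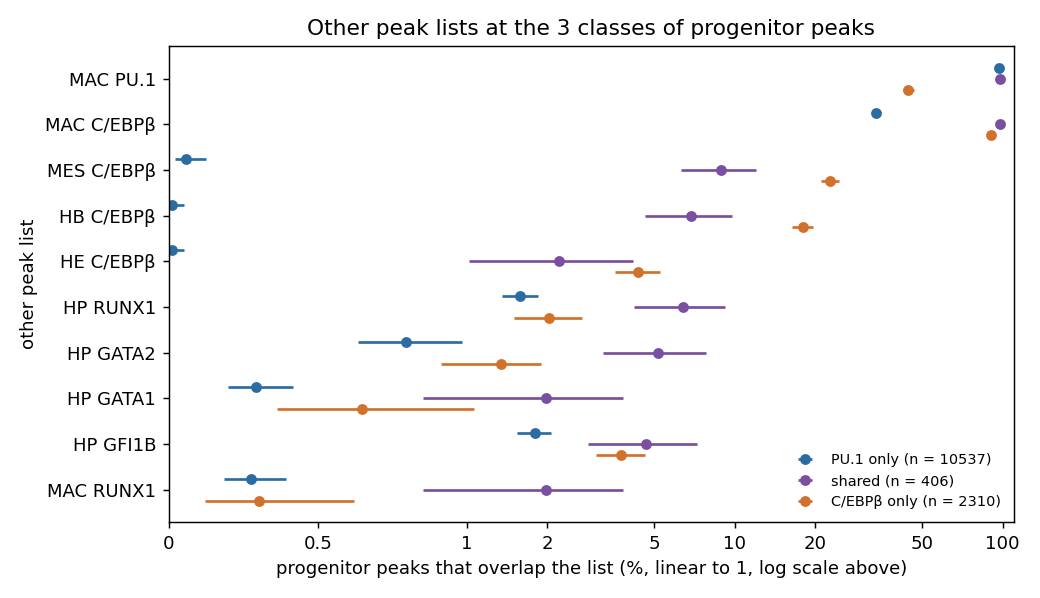
Percent of PU.1 only, shared and C/EBPβ only peaks (x axis, linear to 1 and logarithmic above) that overlap the peaks of the other lists named on the y axis, with 95% Clopper-Pearson intervals as lines. C/EBPβ only peaks have the highest shares for MES and HB C/EBPβ (22.7% and 17.97%), and shared peaks for HP RUNX1 and GATA2 (6.40% and 5.17%).

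Each peak was assigned to the coding gene with the nearest TSS, of 21000 coding genes in RefSeq. A PU.1 peak reached 6420 genes (30.6%), a C/EBPβ peak 2248 (10.7%), and both factors 1384 (6.59%). Of the genes with both, 391 had a shared site and 993 (4.73% of all coding genes) had the factors at separate sites only. When peaks went to the nearest TSS of any gene, coding or not, these fell to 798 coding genes with both and 530 with separate sites only. Among C/EBPβ genes 61.6% (interval 59.5 to 63.6) also had PU.1, against 26.9% of the other coding genes (26.2 to 27.5). Genes differ in the length of genome nearest to their start sites, here called the territory, and this length moved with the classes. Its median was 49006 bp over all coding genes, 52719 bp for genes with C/EBPβ and no PU.1, 78798 bp for PU.1 without C/EBPβ, 110210 bp for genes with a shared site and 133307 bp for genes with separate sites only. Within the shortest of 3 equal classes of territory, 30.3% of C/EBPβ genes and 14.8% of other genes had PU.1. In the middle class these were 54.6% and 25.9%, and in the longest 75.5% and 41.6%. At genes with separate sites only, the closest PU.1 and C/EBPβ peaks were a median of 14816 bp apart (quartiles 4874 and 37852 bp), and 40.4% had them within 10 kb.

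Genes with the most peaks of both factors together mostly combined many PU.1 peaks with few C/EBPβ peaks. The PU.1 list was also the longer, with 10943 peaks against 2716. The ranking is not corrected for list length or territory. The territory ran from 73722 bp at Zfp184 to 967854 bp at Pik3r1, beside a median of 49006 bp over all coding genes. Among the 10 highest, Irf2, an interferon regulatory factor, had 9 PU.1 and 4 C/EBPβ peaks, 3 of them shared. Plcg2, which encodes a phospholipase of immune receptor signalling, had 11 and 2, Runx1 had 9 and 4, and Pik3r1, a regulatory subunit of PI 3-kinase, had 12 and 1. Etv6, an ETS family repressor, had 10 PU.1 and 2 C/EBPβ peaks with no overlap, and Irs2, an adaptor of insulin signalling, had 11 and 1, also apart. The opposite balance was found at Zfp184, a zinc finger gene within a histone and tRNA gene cluster, with 1 PU.1 and 16 C/EBPβ peaks. All 16 lay within 500 bp of a tRNA gene. Of the other 3 genes in the 10, Tomm20 had 12 and 4, Zfp217 9 and 5, and Sgms1 11 and 2 peaks. By the same count, the first 10 genes with separate sites only were Zfp217, Sgms1, Etv6, Irs2, Klf6 (10 and 2), Tcf7l2 (10 and 2), Foxn3 (9 and 2), Rreb1 (7 and 4), Chd9 (9 and 1) and Gadd45g (9 and 1).

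Functional lists were then counted beside the background of all coding genes (30.6% with PU.1, 10.7% with C/EBPβ). The lists differed in territory, with medians from 17318 bp for ribosomal protein genes to 121128 bp for blood transcription factors and 90728 bp for AP-1 and immediate early genes, and the counts are not corrected for it. Among 39 blood transcription factors, 33 had PU.1 (84.6%) and 20 had C/EBPβ (51.3%), and every one of the 20 also had PU.1. By the nearest TSS of any gene these were 24 and 13. The background fell too, with both factors at 798 of all coding genes, beside 1384 by the nearest coding TSS. A shared site was found at 7 of the 20. Spi1 itself had a site 678 bp (PU.1 peak) and 681 bp (C/EBPβ peak) downstream of its TSS, and the C/EBP consensus was in both peaks. Cebpb, which encodes C/EBPβ, had 6 PU.1 and 2 C/EBPβ peaks, with shared sites 65147 bp and 71382 bp downstream by their PU.1 peaks. Each gene thus had sites of both factors nearest to it. Runx1 had shared sites 18684 bp upstream and 24246 bp downstream by their PU.1 peaks. Nfe2, which encodes a regulator of megakaryocytes, had a shared site at its promoter, with the PU.1 peak 122 bp upstream and the C/EBPβ peak 11 bp downstream. Tal1, a regulator of blood specification, had a shared site 593 bp (PU.1) and 600 bp (C/EBPβ) from its TSS, where 9 of the 14 lists had a peak. The site of Gfi1, which encodes a repressor of blood stem and myeloid cells, lay 33597 bp upstream in an intron of Evi5, where 11 lists had a peak. Ikzf1, the lymphoid factor Ikaros, had its shared site 40170 bp from its TSS by the PU.1 peak.

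Another 13 of these factors had PU.1 and C/EBPβ at separate sites only. They included Lyl1, Lmo2, Fli1, Gfi1b, Meis1, Myb, Hhex, Etv6, Cebpe, Cebpg, Maf and Nfil3, which span stem cell regulators and C/EBP family members. At Cebpe the PU.1 peak lay 910 bp upstream and the C/EBPβ peak 6182 bp downstream, each on its own consensus as printed above. At Lyl1, a relative of Tal1, PU.1 peaks lay 248 bp downstream and 1427 bp upstream while the C/EBPβ peak lay 24579 bp downstream. PU.1 without C/EBPβ was found at 13 factors, among them Runx2, Runx3, Irf8 and Cebpa. Irf8, which directs monocyte and dendritic cell development, had 4 PU.1 peaks, from 9288 bp to 86210 bp downstream. Cebpa, the C/EBP gene required for granulocytes, had 1 PU.1 peak 2978 bp upstream. No peak of either list had the TSS of Gata1, Gata2 or the erythroid factor gene Klf1 as its nearest coding TSS, and peaks assigned to neighbouring genes are not counted for them. The authors do report C/EBPβ binding to Gata2 in HP, in their regulatory network.

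Myeloid growth factor receptors showed the same order. Of 17 genes, 12 had PU.1 (70.6%) and 8 had C/EBPβ (47.1%), and all 8 had both. Ifngr2, a chain of the interferon gamma receptor, carried a shared site 436 bp upstream of its TSS at which the PU.1 and C/EBPβ peaks had identical bounds and both consensus sequences. It also had a C/EBPβ peak 24345 bp upstream, between PU.1 peaks at 24806 bp and 23938 bp. Tnfrsf1b, a tumour necrosis factor receptor, had a shared site 5678 bp from its TSS, and Il10ra, the interleukin 10 receptor, was the third gene with one. At Csf3r the factors were 6812 bp upstream (C/EBPβ) and 6278 bp downstream (PU.1). At Il6ra, the interleukin 6 receptor, a C/EBPβ peak lay 115 bp upstream and the nearest PU.1 peak 1794 bp downstream. At Kit, the stem cell factor receptor, the PU.1 peak lay 120429 bp and the C/EBPβ peak 156005 bp downstream. Il3ra and Tnfrsf1a also had separate sites. Csf1r, the receptor that drives macrophage development, had 4 PU.1 peaks, the closest 249 bp downstream, and no C/EBPβ peak. Csf2ra, Il6st and Ifngr1 had PU.1 only as well.

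**Figure D4:**
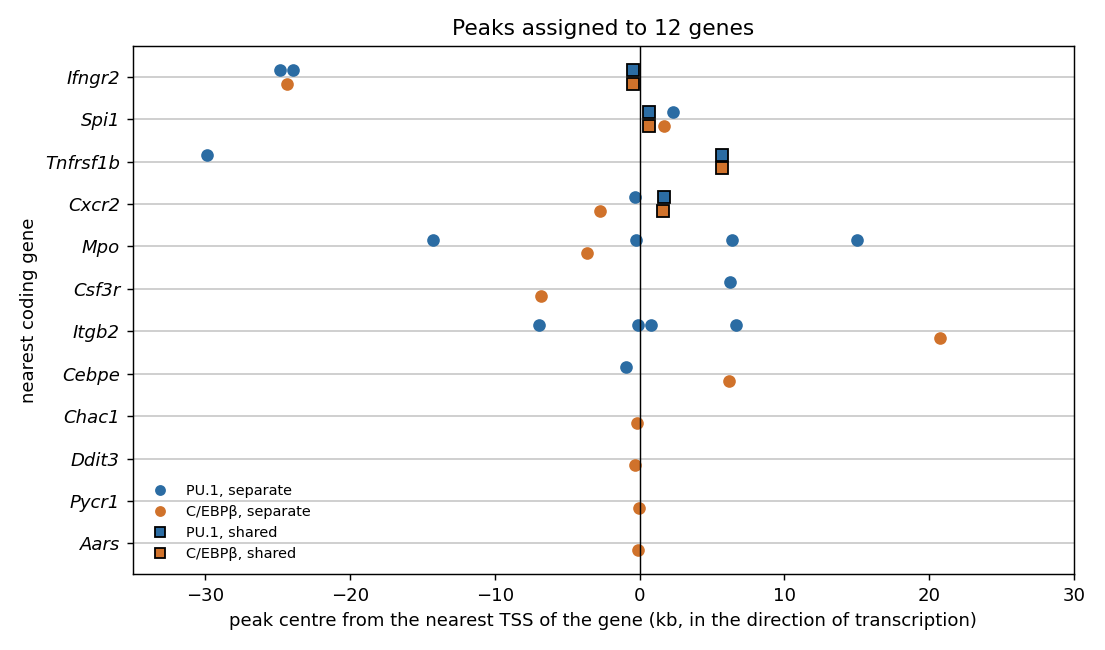
Position of each PU.1 peak (blue) and C/EBPβ peak (orange) relative to the nearest TSS (kb in the direction of transcription, x axis) at 12 named genes (y axis), with squares for shared and circles for separate peaks. Ifngr2, Spi1, Tnfrsf1b and Cxcr2 carry shared sites, the peaks of the factors are apart at Mpo, Csf3r, Itgb2 and Cebpe, and Chac1, Ddit3, Pycr1 and Aars have C/EBPβ alone at the TSS.

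Genes of Fc receptors and ITAM signalling, through which phagocytes respond to antibody-coated targets, were mostly PU.1 genes with PU.1 at their start sites. Of 25, 20 had PU.1 and 10 had C/EBPβ, with both at 9. Within 2 kb of a TSS, 18 of the 20 had a PU.1 peak, beside 1849 of all 6420 PU.1 genes (28.8%), while 2 of the 10 had a C/EBPβ peak there, beside 770 of all 2248 C/EBPβ genes (34.3%). Tyrobp, the adaptor DAP12, had a PU.1 peak 3 bp upstream, the tyrosine kinase gene Btk 8 bp downstream and the inhibitory Fc receptor gene Fcgr2b 13 bp upstream, and none of these had C/EBPβ. The kinase genes Syk and Lyn had PU.1 peaks 4 bp downstream and 2 bp upstream of the TSS, and their C/EBPβ peaks lay 107090 bp and 44955 bp downstream. Vav1, an exchange factor of immune receptor signalling, had PU.1 2 bp upstream and C/EBPβ 1523 bp downstream. Shared sites were found at Plcg2, Inpp5d (the phosphatase SHIP1) and Ptprc (CD45). The C/EBPβ peaks of the activating receptors Fcgr1 (3 peaks), Fcgr3 (1 peak) and Fcgr4 (4 peaks) all lay within 500 bp of tRNA genes, and 7 of the list had C/EBPβ without such peaks. By the nearest TSS of any gene, 5 of the list had C/EBPβ, and all coding genes with both factors fell from 1384 to 798.

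Integrins and the effector genes of phagocytes are given beside 30.6% of all coding genes with PU.1 and 10.7% with C/EBPβ. Of 17 integrin genes, 16 had PU.1 (94.1%) and 3 had C/EBPβ (17.6%). Itgam, which encodes the macrophage sorting marker CD11b, had PU.1 peaks 13707 bp upstream and 3130 bp downstream and no C/EBPβ peak. Itgb2, its beta chain, had PU.1 73 bp upstream and C/EBPβ 20717 bp downstream, and Itgax (CD11c) had the shared site printed above. Of 7 phagocyte NADPH oxidase genes, 5 had PU.1 and 1, Cyba, also had C/EBPβ, at separate sites. Ncf4 and Ncf1, cytosolic subunits of the oxidase, had PU.1 peaks 3 bp downstream and 11 bp upstream. Of 20 granule and lysozyme genes, 8 had PU.1 (40%) and 2 had C/EBPβ (10%), near those shares. Mpo had 4 PU.1 peaks, 1 of them 230 bp upstream, and a C/EBPβ peak 3607 bp upstream, and Srgn, which encodes a granule proteoglycan, had a shared site 1633 bp upstream by its PU.1 peak. Elane and Lyz2, other granule and lysozyme genes, had neither.

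Inflammatory genes are given beside all coding genes, of which 30.6% had PU.1, 10.7% had C/EBPβ and 6.59% had both. Of 23 cytokine and chemokine genes, 15 had PU.1 and 6 had C/EBPβ, and all 6 had both. Ccl3 and Ccl9 had shared sites, that of Ccl3 9092 bp downstream by its PU.1 peak, and Il6, Ccl2, Ccl6 and Csf1 had separate ones. Of 15 chemokine receptor genes, 11 had PU.1 and 3 had C/EBPβ. Each of these, Ccr1, Cx3cr1 and the neutrophil receptor gene Cxcr2, had a shared site. Of 19 Toll-like receptor and adaptor genes, 10 had PU.1 (52.6%) and 3 had C/EBPβ (15.8%). The shared site was at Tlr13, and Tlr5 and the inhibitor gene Irak3 had separate sites. Of 30 genes of lysosome and phagocytosis, 23 had PU.1 and 8 had C/EBPβ. The protease gene Ctsd and the lysosomal regulator genes Tfeb and Tfec had shared sites, while the protease gene Ctsl had C/EBPβ only. None of 16 complement genes had C/EBPβ, and 5 had PU.1 (31.25%), near the share of all coding genes.

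AP-1 and immediate early genes, which respond within minutes to growth factors and stress, combined PU.1 and C/EBPβ at many members. Of 23, 20 had PU.1 (87.0%) and 12 had C/EBPβ (52.2%), and all 12 had both. Shared sites were found at Fos, Junb, the phosphatase gene Dusp1 and Klf4. That of Klf4 lay 91082 bp upstream by its C/EBPβ peak. The Fos site, 5103 bp upstream by its PU.1 peak, held no consensus of the searched set, and the Junb site lay 1149 bp upstream by its PU.1 peak. Separate sites were found at Fosb, Fosl2, Ier2, Ier3, Ier5, Klf2, Klf6 and Klf10. No gene of the list had a C/EBPβ peak with the C/EBP-ATF letters. The C/EBPβ count depended on the gene assignment and was 10 with peaks within 50 kb of the TSS, 8 when a peak had to lie inside the gene or at most 10 kb away, and 5 by the nearest TSS of any gene, by which 12 had PU.1. The blood transcription factors had 18, 17 and 13 under the same assignments. Over all coding genes, those with both factors were 980, 1315 and 798, beside 1384 in the main setting.

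The amino acid stress genes and the aminoacyl-tRNA synthetases each had 5 members with C/EBPβ and no PU.1, the most of the 20 lists, beside 864 of all 21000 coding genes. Of 35 amino acid stress genes, 19 had PU.1 (54.3%) and 15 had C/EBPβ (42.9%). In the first part of each list, to the middle of the deposited file, these fell to 11 and 8. The 15 C/EBPβ genes divided into 2 with a shared site (Cebpb and the translation inhibitor gene Eif4ebp1), 8 with separate sites and 5 without PU.1. At 13 of the 15 a C/EBPβ peak lay within 2 kb of a TSS, beside 770 of all 2248 C/EBPβ genes (34.3%). In the same list 9 had a peak with TTGCATCA, beside 198 of all C/EBPβ genes (8.81%). The 5 without PU.1 were Ddit3 (310 bp upstream, in an intron of Mbd6), Trib3 (20 bp upstream, without a searched consensus), Chac1 (176 bp upstream), Pycr1 (50 bp upstream) and Shmt2 (492 bp downstream). Trib3 encodes a pseudokinase induced by amino acid shortage. Of those with separate sites, the stress factor gene Atf3 had C/EBPβ 31 bp downstream on TTGCATCA and PU.1 66883 bp upstream. The cystine transporter gene Slc7a11 had its C/EBPβ peak 40 bp upstream, and Herpud1, of the endoplasmic reticulum stress response, 118 bp upstream. Slc7a5, Slc3a2 and Slc38a2, which encode amino acid transporters, Cebpg and Gdf15 also had separate sites. Asns, Psat1 and Phgdh, enzymes of asparagine and serine synthesis, had PU.1 only, and Atf4 itself was nearest to neither.

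Aminoacyl-tRNA synthetases are the enzymes that charge tRNAs with amino acids. Of 21, 8 had PU.1 and 8 had C/EBPβ (38.1% each), with both at 3 (Farsb, Gars and Nars, all at separate sites). By the nearest TSS of any gene, PU.1 was at 6 and C/EBPβ at 8, and in the first part of each list, to the middle of the deposited file, an alternative added after the values were seen, PU.1 was at 2 and C/EBPβ at 7. The background fell as well. Of all genes without C/EBPβ, 21.0% and 17.1% had PU.1 under these 2 alternatives, beside 26.9% in the main setting. At all 8 C/EBPβ genes the peak was within 2 kb of a TSS, and at 7 it held TTGCATCA. The distances were 121 bp upstream at Aars, 5 bp upstream at Yars, 12 bp downstream at Iars, 119 bp downstream at Mars1, 1051 bp downstream at Sars, 19 bp upstream at Gars, 289 bp downstream at Farsb and 1 bp upstream at Nars. Of these 8 genes, 7 had a site also listed for C/EBPβ in MES or HB, beside 637 of all 2248 C/EBPβ genes (28.3%), and 9 of the 15 stress genes did. In macrophages, 4 of the 8 had a site in the PU.1 list, beside 1292 of all C/EBPβ genes (57.5%), and 9 of the 15 stress genes did. The same counts for the blood transcription factors stand beside these. Of their 20 C/EBPβ genes, 7 had a peak within 2 kb of a TSS, 4 had TTGCATCA, 5 had a site in MES or HB C/EBPβ and 14 had one in macrophage PU.1. These are counts in lists chosen with results known, beside the background, and no test was made of the lists.

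**Figure D5:**
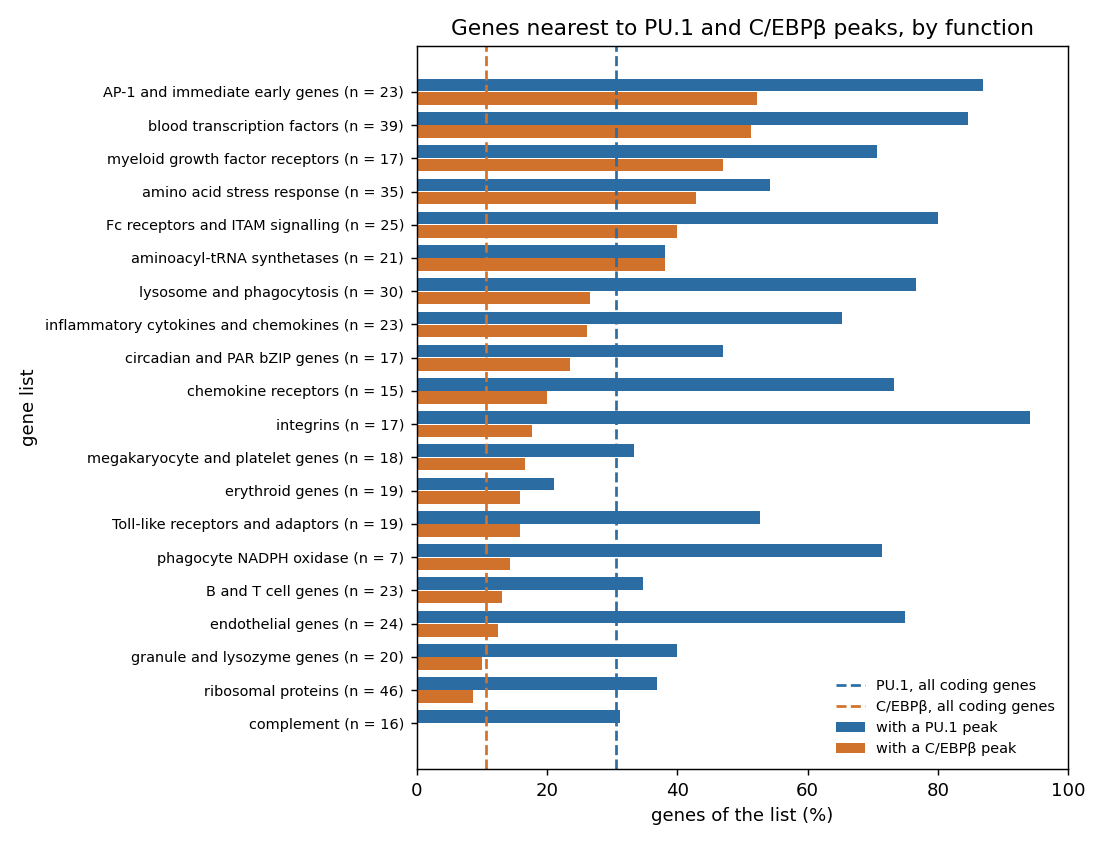
Percent of the genes (x axis) of each functional list (y axis, with the number of genes) that had a PU.1 peak (blue bars) and a C/EBPβ peak (orange bars), with dashed lines at the shares of all coding genes (30.6% and 10.7%). By the nearest coding TSS, AP-1 and immediate early genes had 52.2% with C/EBPβ and blood transcription factors 51.3%, which fell from 12 to 5 and from 20 to 13 genes by the nearest TSS of any gene, and integrins combine 94.1% with PU.1 and 17.6% with C/EBPβ. The dashed lines hold for the nearest coding TSS only. By the nearest TSS of any gene, coding genes with both factors fell from 1384 to 798.

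The genes with the most C/EBPβ peaks and no PU.1 peak were of another kind again. In 9 of the 10, all of the C/EBPβ peaks or all but 1 lay within 500 bp of a tRNA gene. These were Abt1 (12 peaks, all near tRNA genes), Trim27 (7, all), H4c8 (6, all), Zfp213 (6, of which 5), Btn1a1 (5, all), Vmn1r223 (5, all), and Ang, Aurkb and H4bc24 (4 each, all). Several of these neighbour the histone and tRNA gene clusters, so that the nearest coding gene is a label of position. The exception was Akap13, which encodes a scaffold protein of kinase A, with 3 C/EBPβ peaks and none near a tRNA gene. Over all C/EBPβ genes, 81 of 2248 (3.60%) had all of their C/EBPβ peaks near tRNA genes.

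The lists for erythroid, megakaryocyte, endothelial and lymphoid cells each had 3 C/EBPβ genes, beside 10.7% of all coding genes. Of 19 erythroid genes, 4 had PU.1 (21.1%) and 3 had C/EBPβ (15.8%), among them Bcl11a with both and the transporter gene Rhag with C/EBPβ only. Of 18 megakaryocyte and platelet genes, 6 had PU.1 and 3 had C/EBPβ. Of 24 endothelial genes, 18 had PU.1 (75%) and 3 had C/EBPβ (12.5%). Cdh5, Pecam1 and Kdr, which encode defining surface proteins of endothelium, had PU.1 only, and Flt1, Esam and Nrp1 had both at separate sites. Of 23 B and T cell genes, 8 had PU.1 and 3 had C/EBPβ, and the shared site was assigned to Gata3, a T cell regulator. The C/EBPβ peaks of Gata3 lay 77041 bp or more from its TSS. Of 46 ribosomal protein genes, 17 had PU.1 (37.0%) and 4 had C/EBPβ (8.70%), and their median territory of 17318 bp was the shortest of the 20 lists. Of 17 circadian and PAR bZIP genes, 8 had PU.1 and 4 had C/EBPβ, with a shared site at Per1 and C/EBPβ without PU.1 at Per2, both clock repressors.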

How the data were processed

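ChIP-seq data were used as 1 peak list per factor and population. The deposited lists give start and end positions in bp per peak and no read count or score. As the authors describe, reads were trimmed (CutAdapt), aligned to mm10 (Bowtie), restricted to unique and deduplicated reads (Picard), and peaks were called against input (MACS) at a p-value chosen by eye, refined (polyPeak) and set to 400 bp. HP C/EBPβ merged repeated sequencing of a library. Versions are not given in the sources used here. A threshold by eye affects list length and thus every overlap and gene count.

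Peaks were assigned to the nearest TSS among 26032 TSS of 21000 coding genes, and to 425 tRNA genes (RefSeq, GRCm38.p6). The 20 functional lists matched 454 of 456 symbols (450 genes). Shares were compared with Fisher's exact test on peaks (22 features, 3 pairs of classes, adjusted together at 0.05). Scripts were tested on simulated data. Python 3.11.15, NumPy 2.4.6, SciPy 1.17.1, pysam 0.24.0 and Matplotlib 3.10.9 were used. The peak lists, members and gene lists were chosen with earlier results of these data known. Named genes were list members, those with both factors first, and the 10 genes with the most peaks in each of 3 kinds (both factors, separate sites only, C/EBPβ without PU.1). Alternatives covered overlap, promoter limit, gene assignment, tRNA peaks, consensus letters and list length. Some members of the lists are counted but not reported here by name.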

Additional observations from a re-analysis of the deposited data

How the results depend on the processing

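Over 27 results and 15 alternative settings, 150 of 183 values kept their direction and side of the threshold, or their size. The share of C/EBPβ peaks that were shared was 12.8% with an overlap of at least 200 bp and 17.7% with centres within 1 kb. The small difference in C/EBP consensus between shared and C/EBPβ only peaks changed sign, to -0.66 points with centres within 1 kb (Fisher, adjusted exact p = 0.831), -2.72 without peaks near tRNA genes (0.391), -2.57 for distal peaks (0.466), -7.25 when shared pairs were counted by their PU.1 peak (0.0107) and -9.61 with TTGCGCAA (9.3e-10). The promoter difference between shared and PU.1 only peaks was 4.62 points at a limit of 5 kb and no longer passed the test (adjusted exact p = 0.0683). The percent of C/EBPβ genes with PU.1 was 52.7 within 50 kb, 54.3 in the gene or within 10 kb, and 50.8 by the nearest TSS of any gene, beside 23.2, 28.4 and 21.0 of other genes. With that last assignment, 798 genes had both factors and 530 had them at separate sites only. The cause was not tested.

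Further alternatives were added after the data had been seen. TTGCGCAA without peaks near tRNA genes gave -10.6 points (adjusted exact p = 1.2e-10). The first part of each list, to the middle of the deposited file, left 133 shared C/EBPβ peaks (9.79%), 588 genes with both factors, 455 with separate sites only and 48.1% of C/EBPβ genes with PU.1, beside 17.1% of other genes. In it PU.1 and C/EBPβ were at 25 and 13 blood transcription factors, 11 and 8 amino acid stress genes, and 2 and 7 synthetases. They were at 16 and 6 AP-1 and immediate early genes, and 15 and 4 Fc receptor and ITAM genes. This alternative has fewer peaks by its construction. No paired analysis was possible because each factor has a single list. The lists carry no depth and library depth was not used here, so a peak of 1 list only may lie below the threshold of the other.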

Other observations

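The deposited lists keep an order whose meaning the sources used here do not give. The C/EBP consensus was in 77.1% of the peaks in the first 10% of the C/EBPβ list and 59.6% of those in the last 10%. The PU.1 consensus was in 55.3% and 34.5% of the first and last 10% of the PU.1 list, of which 6.40% and 3.29% were shared. For scale beside C/EBPβ, HP RUNX1 peaks overlapped PU.1 peaks at 20.0%, GATA2 peaks at 19.8%, GATA1 peaks at 15.6% and GFI1B peaks at 10.4%.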
